A study of Mus musculus with 3 samples.

Results

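The 38 genes described here code for synaptic adhesion proteins, neurite adhesion molecules and the receptors and membrane linkers that work with them. They were taken from a list of gene names, out of 22225 protein-coding gene names in the annotation. The rule uses names and distances but no peak value, although the list was chosen with earlier results of these data known. A peak was assigned to a gene when the deposited list named that gene on either side of the peak at a distance of 0 to 50 Kb. By this rule the genes had 39 of 10965 Twist1 peaks in ECCs, 236 of 48965 in the limb buds and 35 of 7538 in the PNST cells. No peak was assigned to more than 1 of the genes.

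Twist1 occupancy was measured by ChIP-seq in 1 sample of each of 3 mouse tissues, all labelled strain FVB/N, with an antibody against Twist1, and the labels name no treatment or genetic change in any of them. The E12.5 ECCs were heart cushion tissue of the atrioventricular canal, which gives rise to valve mesenchyme, and the E10.5 sample came from whole forelimb buds, which hold several cell types. The PNST sample was 1 cell line from a mouse peripheral nerve sheath tumor, grown in culture, and tissue of several litters or cells of several plates was pooled before immunoprecipitation. Without replicates, no difference between tissues could be tested against the spread between samples, and the intervals given with shares and densities cover counting error only. Peak lists hold no expression values, so the tissue labels could not be checked against marker genes.

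Tags left after the duplicate filter numbered 3149934 in ECCs, 14893391 in the limb buds and 11823220 in the PNST cells, and the weakest peak of each list held 5, 8 and 7 tags, respectively. These minimums correspond to 1.59, 0.537 and 0.592 tags per 1000000 filtered tags, so a region with weaker signal was not detectable in ECCs at a level that the deeper samples could show. The study's methods describe a genomic DNA control but the list headers name none, so it is not known whether a control entered the peak calls and the fold enrichment. The deposited limb bud list also holds several times the tags and peaks that the study's text gives for that tissue. The ECC and PNST lists come close to the text in the number of peaks. The limb bud list was used as deposited, and all limb bud counts rest on it. Words of 32 bases that occur again elsewhere in the genome made up at least 50% of the sequence in 94.8% of all assembled peaks in ECCs, 98.6% in the limb buds and 96.0% in the PNST cells.

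Synapses and axon contacts are built by adhesion proteins that bind across the gap between cells. Neurexins on the presynaptic side bind neuroligins and leucine-rich repeat proteins on the postsynaptic side, while contactins, the NCAM and L1 families and the IgLON proteins carry immunoglobulin domains and guide, bundle and separate neurites. Ankyrins tie many of these proteins to the spectrin skeleton below the membrane. Some of the genes are also used outside neurons, as Ncam1, Chl1 and Nfasc are in Schwann cells, the cell type from which nerve sheath tumors arise. Not all of the genes code for adhesion proteins. The Sorcs genes code for sorting receptors, the Csmd genes for large CUB and sushi proteins of neurons, and Ctnnal1 for alpha-catulin, a protein of the alpha-catenin family that is not known for a role at synapses.

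Peaks of all 3 tissues overlapped at 6 places near these genes, and 4 of these places carry the strongest signal near the genes. The sequence common to the 3 peaks is shown for 4 of the 6 places, those of Chl1, Csmd3, Grid1 and Cntnap4. Coordinates are in mm9, the plus strand is printed, and capitals would mark an E-box (5′-CANNTG-3′, which reads the same way on both strands). They lie at chr6:103599009-103599294 in intron 4 of Chl1, chr15:47371517-47371683 downstream of Csmd3, chr14:35831396-35831484 in intron 3 of Grid1 and chr8:115124801-115124829 in intron 1 of Cntnap4, and the other 2 places lie upstream of Lrrn3 and in intron 6 of Sorcs1. None of the 6 common sequences held an E-box, but these are shorter than the peaks, down to 29 bp at Cntnap4. The whole Cntnap4 peaks held 1 E-box in ECCs, 3 in the limb buds and 3 in the PNST cells. The whole limb bud peak at Csmd3 held 1.
Chl1: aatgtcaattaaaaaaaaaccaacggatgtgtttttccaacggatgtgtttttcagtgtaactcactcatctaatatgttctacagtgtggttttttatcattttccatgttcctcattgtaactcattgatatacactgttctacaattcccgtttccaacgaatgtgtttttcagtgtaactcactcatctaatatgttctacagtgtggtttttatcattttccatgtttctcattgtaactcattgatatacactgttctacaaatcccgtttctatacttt
Csmd3: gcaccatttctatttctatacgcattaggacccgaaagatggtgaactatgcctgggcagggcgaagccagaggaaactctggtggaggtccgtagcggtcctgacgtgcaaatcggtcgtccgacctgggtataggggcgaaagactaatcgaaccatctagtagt
Grid1: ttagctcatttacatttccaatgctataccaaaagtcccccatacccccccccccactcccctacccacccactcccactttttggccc
Cntnap4: ggcaccacccacaaggggacctcccctct

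At Chl1, a cell adhesion molecule of the L1 family, the peak held 247 tags in ECCs, 260 in the limb buds and 351 in the PNST cells, which is 78.4, 17.5 and 29.7 tags per 1000000. The fold enrichment was 75.12, 65.79 and 52.22, and the 3 summits lay within 3 bp of each other. These were the peaks with the most tags of all peaks assigned to the 38 genes. The common sequence held a stretch of 53 bp that occurs again 121 bp further on, and its letters are those of the mouse minor satellite, the tandem repeat of centromeres. It also held the core of the CENP-B box, the site of a centromere protein, searched as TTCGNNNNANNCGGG on both strands. This core was found in 5 peaks of each list, which is 0.0469% of the assembled peaks in ECCs, 0.0105% in the limb buds and 0.0689% in the PNST cells, and Chl1 had the 1 such peak among the 38 genes in each tissue.

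At Csmd3, which codes for a large membrane protein with CUB and sushi domains, the peak lay 40671 bp from the gene in the ECC list and held 72 tags in ECCs, 83 in the limb buds and 67 in the PNST cells (22.9, 5.57 and 5.67 tags per 1000000). Its letters are known as a stretch of 28S ribosomal RNA, although no ribosomal RNA reference was used here. The 32 bases in its middle occurred at 8 places in the genome, and all 8 had a peak in ECCs, in the limb buds and in the PNST cells. The peak listed for Lrrn3, a leucine-rich repeat protein of neurons, held 58, 62 and 42 tags in ECCs, limb buds and the PNST line and lay in intron 4 of another gene, Immp2l. The peak in Sorcs1, a sortilin-related receptor, held 52, 61 and 35 tags.

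Lrrn3 and Sorcs1 had the highest fold enrichment of all peaks assigned to the genes, in each tissue. Words found again in the genome made up 74.0% to 100% of the Lrrn3 peak, depending on the tissue. They made up 25.4% to 75% of the Sorcs1 peak. The word in the middle of the common sequence occurred at 201 places in the genome for Lrrn3 and 204 for Sorcs1. Peaks of all 3 tissues lay at 142 and 143 of these places, respectively. Fold enrichment at Lrrn3 and Sorcs1 reached 148.49 and 137.21 in ECCs. It reached 146.78 and 143.68 in the limb buds and 113.76 and 94.72 in the PNST cells. The third highest was the Csmd3 place in ECCs (84.03) and PNST cells (53.79) and the Chl1 place in limb buds (65.79). The other 2 places in all 3 tissues were weak. The C-rich place in Grid1, the delta type glutamate receptor that binds cerebellins, held 5, 14 and 12 tags, and the place in Cntnap4 held 5, 8 and 7 tags, the lowest number that each list allows.

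**Figure D1:**
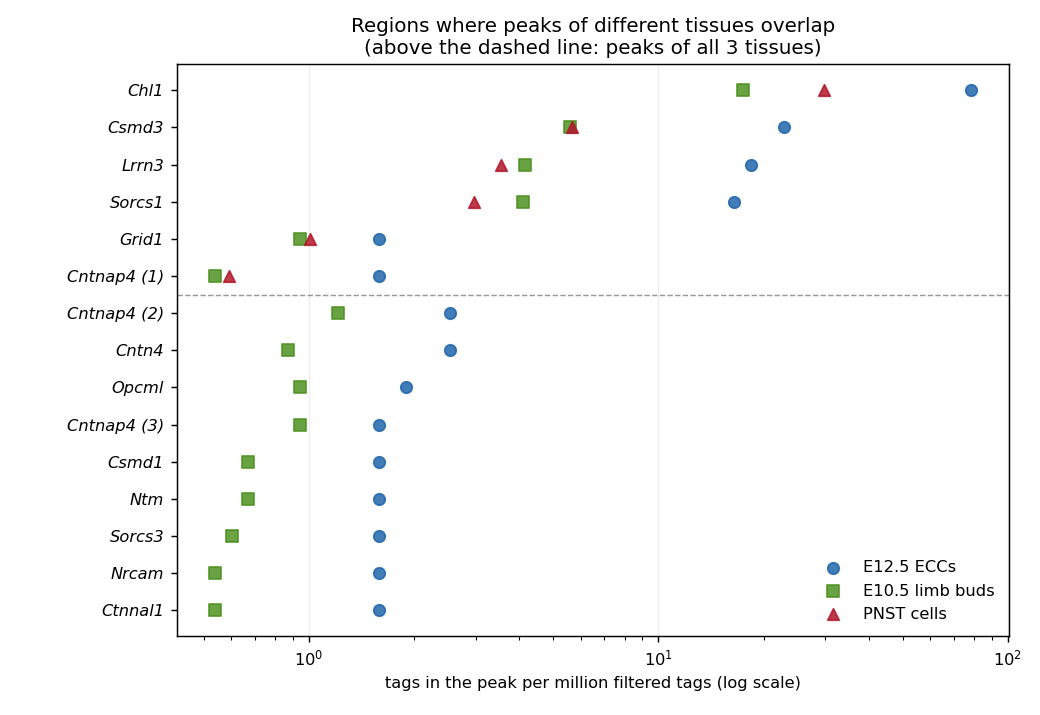
Tags per 1000000 filtered tags in the peak (log scale) at the 15 regions where peaks of different tissues overlap near the genes, with 1 point for each tissue that has a peak and the regions of all 3 tissues above the dashed line. The Chl1 region reached 78.4 in ECCs, 17.5 in the limb buds and 29.7 in the PNST cells, and the 9 regions of ECCs and limb buds lay between 0.537 and 2.54.

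Another 9 regions were overlapped in ECCs and limb buds but not in PNST cells. Of all assembled peaks, 54.7% in ECCs and 56.0% in the limb buds held an E-box, counted over the whole peak. In the sequence common to both tissues, 6 of the 9 regions held one. Of these 6, the regions with the most tags are shown with their E-boxes in capitals, from chr8:115321015-115321207 in intron 12 of Cntnap4, chr6:105650277-105650450 in intron 1 of Cntn4, chr9:27606198-27606321 in intron 1 of Opcml and chr9:28935028-28935168 in intron 3 of Ntm (mm9, plus strand).
Cntnap4: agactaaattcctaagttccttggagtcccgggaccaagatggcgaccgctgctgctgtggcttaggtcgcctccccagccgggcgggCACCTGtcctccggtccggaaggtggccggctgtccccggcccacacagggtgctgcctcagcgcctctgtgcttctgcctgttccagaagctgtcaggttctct
Cntn4: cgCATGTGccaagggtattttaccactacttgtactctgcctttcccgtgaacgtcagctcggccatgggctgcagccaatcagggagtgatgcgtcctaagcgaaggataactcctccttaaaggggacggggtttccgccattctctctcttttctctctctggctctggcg
Opcml: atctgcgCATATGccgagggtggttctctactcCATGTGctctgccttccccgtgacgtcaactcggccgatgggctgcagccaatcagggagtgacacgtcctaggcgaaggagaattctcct
Ntm: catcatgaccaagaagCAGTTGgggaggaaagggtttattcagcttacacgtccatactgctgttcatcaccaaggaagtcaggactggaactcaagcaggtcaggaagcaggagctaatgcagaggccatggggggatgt

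These 9 regions held 5 to 8 tags in ECCs and 8 to 18 in limb buds, where the weakest peaks of the lists held 5 and 8. In Cntnap4, a contactin-associated protein of synapses, the printed region held 8 tags in ECCs and 18 in limb buds. The region in Cntn4, an axonal contactin, held 8 and 13 tags, and that in Opcml, an IgLON protein, held 6 and 14 tags. The region in Ntm, another IgLON protein, held 5 and 10 tags. The other 5 regions lay near Cntnap4, Csmd1, Sorcs3, Nrcam and Ctnnal1, with 5 tags each in ECCs and 8 to 14 in limb buds. The middle 32 bases of the Cntn4 region occurred at 199 places, of which 18 had a peak in ECCs, 54 in the limb buds and 0 in the PNST cells. Those of the Cntnap4 region occurred at 962 places, with a peak at 65 places in ECCs, 325 in the limb buds and 0 in the PNST cells. The Ctnnal1 region lay in an exon of the neighbouring gene D730040F13Rik.

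The counts that follow are of listed peaks, which leave out peaks in the middle of long introns. Among the presynaptic neurexins, Nrxn3 had 1 peak in ECCs, 10 in the limb buds and 2 in the PNST cells, and Nrxn2 had 1 in limb buds, 746 bp from the gene part named in the list. Nlgn1, the neuroligin of excitatory synapses, had 6 peaks in limb buds (69 tags in total) and 0 in the other tissues, although 4 ECC summits lay inside the gene beyond the distance limit. Nlgn2, the neuroligin of inhibitory synapses, had no peak in any tissue. The neurexin partners Lrrtm3 and Lrrtm4 had 3 and 1 peaks in limb buds, Lrrc4c, the netrin-G1 ligand, had 2, and Lrrtm1 had none. Of the leucine-rich repeat proteins, Lrrn1 and Lrrn3 were listed in all 3 tissues. Lrrn1 had 1, 4 and 1 peaks in ECCs, limb buds and the PNST line, and Lrrn3 had 1, 2 and 1.

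Contactins, which are anchored in the membrane by a lipid and act on axons, had 7 peaks in ECCs, 34 in the limb buds and 5 in the PNST cells. Cntn4 had the most, with 2, 15 and 2 peaks, followed by Cntn5 with 2, 7 and 2 and Cntn3 with 2, 6 and 1. Cntn6 was listed in limb buds only (5 peaks), and Cntn1, the contactin of the paranode, had 1 peak in ECCs and 1 in limb buds, 203 Kb apart. The contactin-associated proteins had 6, 29 and 7 peaks. Cntnap2, which helps to cluster potassium channels beside the node of Ranvier, had 3, 23 and 4, and Cntnap4 had 3, 6 and 3. Cntnap1, the partner of Cntn1 at the paranode, had no peak. None of the 3 ECC and 4 PNST peaks of Cntnap2 was overlapped by a limb bud peak, although the nearest limb bud peak was 2.55 Kb from an ECC peak and 7.84 Kb from a PNST peak.

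The NCAM, L1 and DSCAM family of 7 genes had 6 peaks in ECCs, 30 in the limb buds and 4 in the PNST cells. A peak was listed for 7 of the 7 genes in limb buds, 3 in ECCs and 3 in PNST cells. By the same rule 54.0% of all protein-coding genes had one in limb buds, 22.5% in ECCs and 14.6% in PNST cells, and 93.5%, 62.0% and 50.8% of those of at least 200 Kb. Nrcam, which organises nodes of Ranvier, had 3 peaks in ECCs, 7 in the limb buds and none in the PNST cells. Ncam1 and Nfasc had 2 and 3 peaks in the limb buds and 1 each in the PNST cells, with 7 tags in each PNST peak. Dscam, a homophilic receptor of neurite self-avoidance, had 1 listed peak in ECCs and 6 in limb buds, and 2 PNST summits inside the gene that were not listed. Dscaml1 and Ncam2 had 3 and 4 peaks, in limb buds only. Without the satellite-like place, Chl1 had 1 peak of 5 tags in ECCs, 4 peaks in the limb buds and 1 peak of 12 tags in the PNST cells.

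IgLON proteins, small lipid-anchored adhesion molecules of neurites, had 4 peaks in ECCs, 28 in the limb buds and 3 in the PNST cells. Lsamp had 2 and 12 peaks in ECCs and limb buds and none in PNST cells. Negr1 had 8 listed peaks, all in limb buds, while 12 limb bud and 2 PNST summits lay inside the gene. Opcml had 1, 5 and 2 peaks, and Ntm 1, 3 and 1. Of the ankyrins, Ank2 had 1, 2 and 2 peaks and Ank3, the ankyrin of the axon initial segment, had 1, 2 and 1. Both ankyrins were thus listed in all 3 tissues with no overlapping peaks, the nearest pair being a limb bud and a PNST peak of Ank2 1.79 Kb apart.

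Sortilin-related receptors, which sort membrane proteins of neurons, had 4 peaks in ECCs, 28 in the limb buds and 3 in the PNST cells. Sorcs3 had 3, 15 and 1 peaks, Sorcs1 had 1, 10 and 1, and Sorcs2 had 0, 3 and 1. The CSMD proteins had 3, 36 and 4 peaks, of which Csmd1 had 1, 21 and 1 and Csmd3 had 2, 15 and 3. Grid1 had 3, 17 and 2. Ctnnal1 had 1 peak in ECCs and 1 in limb buds, which overlapped 7856 bp from the gene in the limb bud list.

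**Figure D2:**
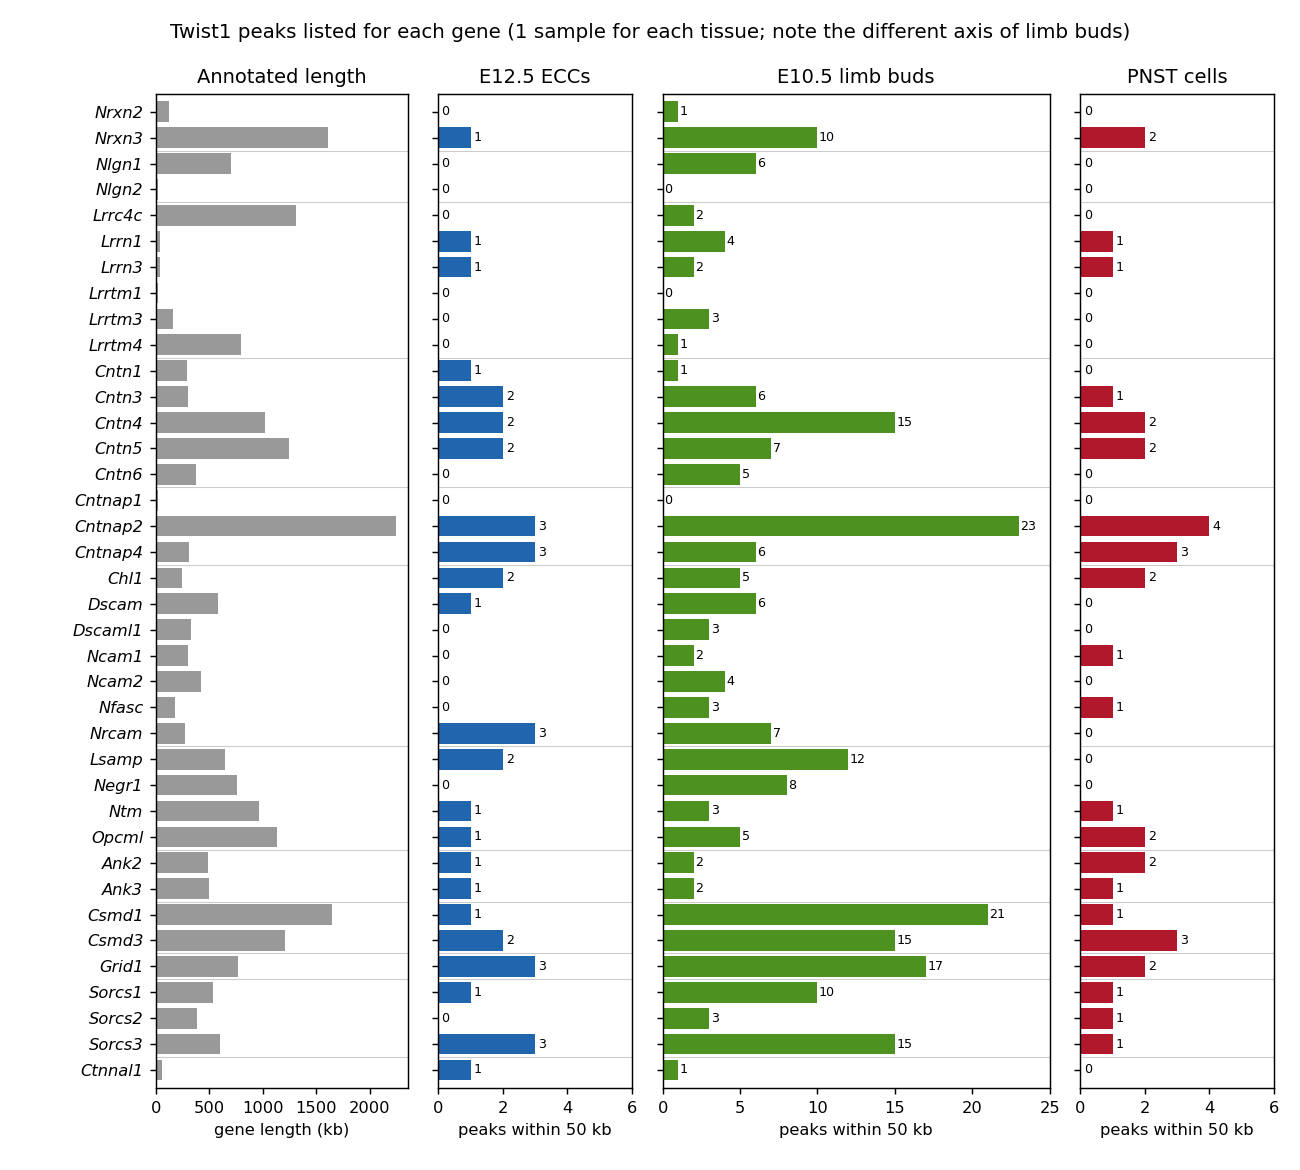
Length of each of the 38 genes (Kb, grey) and the number of peaks listed within 50 Kb of it in ECCs, limb buds and the PNST line, grouped by protein family, with 1 sample for each tissue. Limb buds reach 23 peaks at Cntnap2, while no gene has more than 3 peaks in ECCs or 4 in PNST cells.

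The genes with the most peaks over all tissues were Cntnap2 (30), Csmd1 (23), Grid1 (22) and Csmd3 (20), followed by Cntn4 and Sorcs3 (19 each). The first 5 are described here, with Cntn4 taken before Sorcs3 by the alphabet only. Limb bud peaks of these 5 were spread along the genes. In Cntnap2, 22 of the 23 lay in introns and touched 16 of its 23 introns, with 8 to 19 tags and a median of 9. In Csmd1, 19 lay in 11 of 69 introns, and in Grid1 all 17 lay in 6 of 15 introns. Csmd3 had 11 limb bud peaks in 6 of its 70 introns and 4 outside the gene, and Cntn4 had 14 in 6 of 25 introns. An E-box was present in 12 of 23 limb bud peaks of Cntnap2, 14 of 21 of Csmd1, 10 of 17 of Grid1, 11 of 15 of Csmd3 and 8 of 15 of Cntn4.

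**Figure D3:**
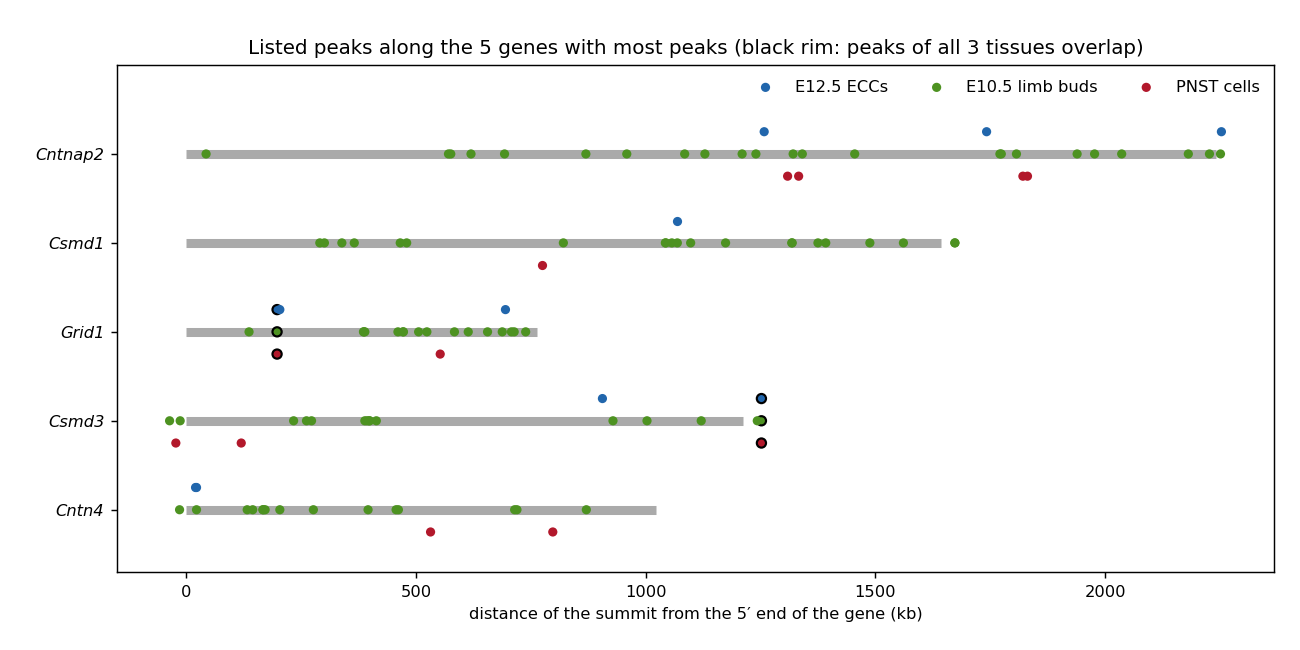
Distance of each listed peak summit from the 5′ end of the gene (Kb) for 5 of the genes with the most peaks. The gene is a grey bar and the peaks of the 3 tissues are on separate lines. Sorcs3, which had as many peaks as Cntn4, is not drawn. Limb bud peaks are spread along genes of 764 to 2241 Kb, and black rims mark the peaks of all 3 tissues in Grid1 and beside Csmd3.

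Over all 38 genes, introns held 71.8% of the peaks in ECCs (28 of 39, 95% Wilson interval 56.2 to 83.5), 78.0% in limb buds (184 of 236, 72.3 to 82.8) and 62.9% in PNST cells (22 of 35, 46.3 to 76.8). No summit lay in a coding or untranslated exon of the genes. The distance in the lists ran, for 96.4% of the 417 distances to these genes, from the start of the peak to the boundary of an exon or coding part (within 4 bp), and for 4.32% to a transcript start. The rule of 50 Kb thus takes in peaks far from promoters: 64.1% of the peaks in ECCs, 71.2% in the limb buds and 68.6% in the PNST line lay over 50 Kb from any transcript start of the gene. A transcript start lay within 1 Kb of 1 peak, in limb buds, 755 bp from a start inside Nrcam. By the distance in the lists, peaks within 1 Kb were found for Chl1 in all 3 tissues, for Cntnap4 in ECCs (472 bp) and limb buds (486 bp), and for Ncam1 (129 bp), Nrxn2 (746 bp) and Cntnap2 (781 bp) in limb buds.

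A peak was listed for 23 of the 38 genes in ECCs (60.5%, 44.7 to 74.4), 35 in the limb buds (92.1%, 79.2 to 97.3) and 21 in the PNST cells (55.3%, 39.7 to 69.9). The same rule gave a peak to 22.5% of all protein-coding genes in ECCs, 54.0% in the limb buds and 14.6% in the PNST cells. The genes were long, however, with a median of 456 Kb against 15.4 Kb over all protein-coding genes. Of the 38, 29 were at least 200 Kb long, as were 4.27% of all genes. Among protein-coding genes of at least 200 Kb, 62.0% had a peak in ECCs, 93.5% in the limb buds and 50.8% in the PNST cells. The 29 long members stood at 69.0% (20 genes, 50.8 to 82.7), 100% (29 genes, 88.3 to 100) and 62.1% (18 genes, 44.0 to 77.3), and each interval included the share over all long genes.

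By length class, the members again stood near all genes. Of the 8 members over 1000 Kb, 7 had a peak in ECCs, 8 in the limb buds and 7 in the PNST cells (87.5%, 100% and 87.5%), compared with 78.8%, 96.2% and 76.9% of the 52 protein-coding genes of that size. Of the 21 members of 200 to 1000 Kb, 13, 21 and 11 had a peak (61.9%, 100% and 52.4%), compared with 61.0%, 93.3% and 49.3% of 901 genes. The 9 shorter members, among them Nlgn2, Cntnap1, Lrrtm1, Lrrn1, Lrrn3 and Ctnnal1, are too few for a comparison.

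All 3 tissues had a peak for 18 of the 38 genes (47.4%, 32.5 to 62.7), compared with 6.56% of all protein-coding genes. Among genes of at least 200 Kb the share was 38.2%, and 16 of the 29 long members reached it (55.2%, 37.5 to 71.6). Listed peaks were in limb buds only for 9 genes, in ECCs and limb buds for 5, and in limb buds and PNST cells for 3. The shares of all genes with each of these patterns were not computed, so the counts only describe the 38 genes. A limb bud peak was listed for 54.0% of all protein-coding genes and 93.5% of those of at least 200 Kb. Of the 9 genes listed in limb buds only, Nlgn1, Lrrc4c, Lrrtm4 and Negr1 held summits of other tissues inside the gene that the distance rule left out. At a fold enrichment of at least 20 the order of the tissues turned, with 37 peaks near 23 genes in ECCs, 21 near 14 in the limb buds and 6 near 6 in the PNST cells. The whole lists differ in the same way. Over all peaks the lower quartile of fold enrichment was 19.8 in ECCs, while the upper quartile was 16.9 in the limb buds and 18.2 in the PNST cells. The turn is thus not particular to these genes. No gene was listed in ECCs or PNST cells without a limb bud peak. The 3 genes with no peak, Nlgn2, Cntnap1 and Lrrtm1, were 14.7, 20.2 and 15.1 Kb long and were the shortest of the list.

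The number of peaks inside the genes moved with their length. Counted at any distance from the exons, 58 summits in ECCs, 290 in the limb buds and 42 in the PNST cells lay inside the 38 genes, and Spearman’s rho with gene length was 0.715, 0.918 and 0.689 across the 38 genes. For listed peaks rho was lower, at 0.319, 0.659 and 0.418. For peaks inside the gene per 100 Kb, rho with length was 0.439, 0.486 and 0.523 across the 38 genes. Genes without a summit, among them most of the short ones, entered with a density of 0. This rho was not computed over all genes, so no rise of density with length can be read from it. The rho values describe genes that share libraries and depth, and carry no p-value. Over all 22367 protein-coding gene records rho for the number of peaks inside the gene was 0.347, 0.578 and 0.320. Per 100 Kb of gene, the 38 genes held 0.257 peaks in ECCs (exact Poisson interval 0.195 to 0.332), 1.28 in limb buds (1.14 to 1.44) and 0.186 in PNST cells (0.134 to 0.251). Protein-coding genes of at least 200 Kb held 0.308, 1.4 and 0.228, and all protein-coding genes held 0.324, 1.4 and 0.209. Both sets of values lay inside the intervals of the 38 genes. The assembled chromosomes as a whole held 0.416, 1.86 and 0.284, above those intervals in each tissue. How much of the peak count of each gene comes from its length was not tested.

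**Figure D4:**
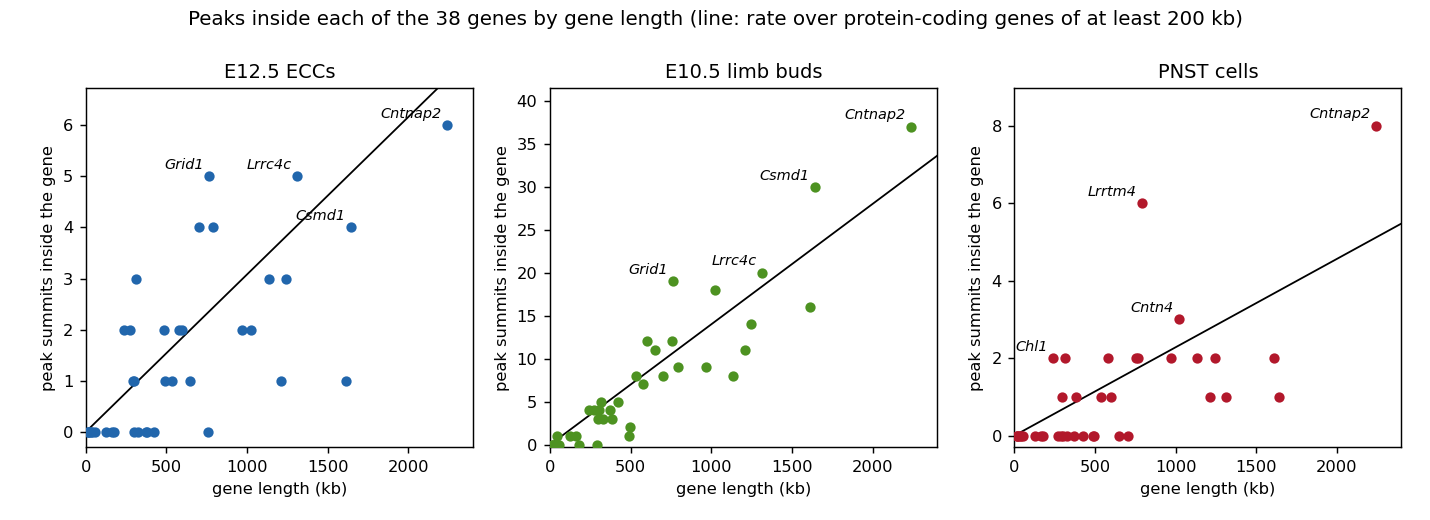
Number of peak summits inside each of the 38 genes against gene length (Kb) in the 3 tissues, with a line at the rate over protein-coding genes of at least 200 Kb. Cntnap2, the longest gene at 2241 Kb, held 6 summits in ECCs, 37 in the limb buds and 8 in the PNST cells, and the 38 genes scatter on both sides of the line.

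**Figure D5:**
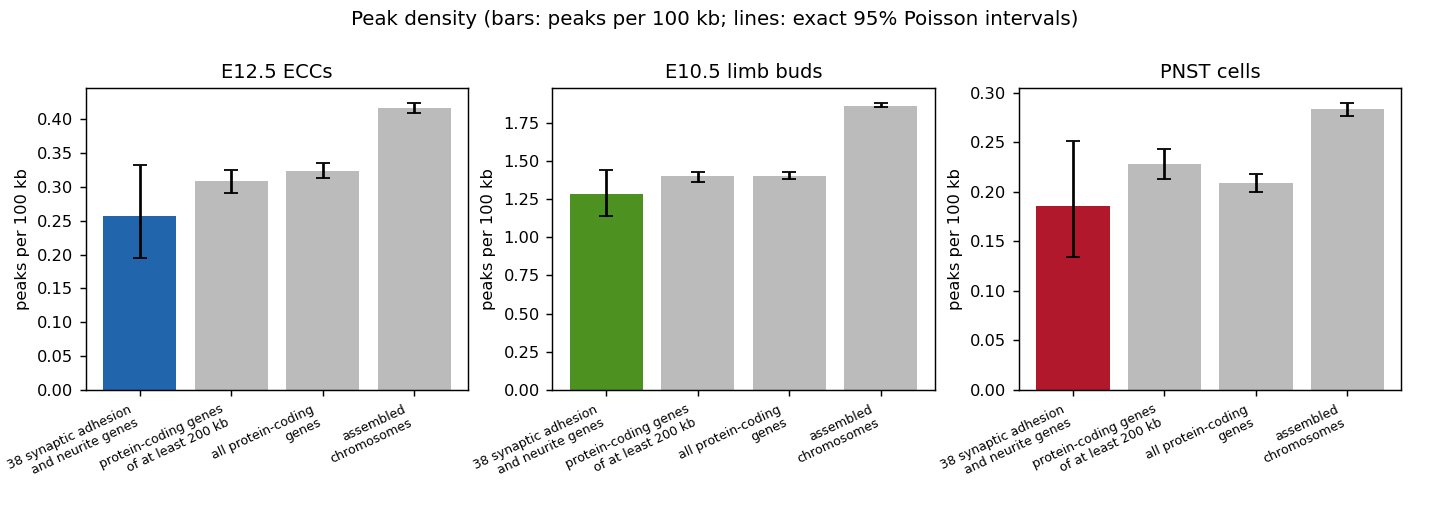
Peaks for every 100 Kb of the 38 genes, of protein-coding genes of at least 200 Kb, of all protein-coding genes and of the assembled chromosomes in each tissue, with exact 95% Poisson intervals as lines. The 38 genes held 0.257, 1.28 and 0.186 peaks per 100 Kb in ECCs, limb buds and the PNST line, below the assembled chromosomes.

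Some long genes stood away from these rates. Among the 29 members of at least 200 Kb, the highest density was 0.959 per 100 Kb in ECCs (Cntnap4, 3 summits), 2.49 in limb buds (Grid1, 19 summits) and 0.838 in PNST cells (Chl1, 2 summits). In ECCs 6 of the 29 held no summit, in PNST cells 10 and in limb buds 1, which was Cntn1. Ank2 held 1 limb bud summit in 487 Kb (0.205 per 100 Kb) and Ank3 held 2 in 493 Kb (0.406), while Sorcs3 held 12 in 599 Kb (2.00). These are counts of 1 sample each.

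The rule on distance missed peaks in the middle of very long introns. Lrrc4c, with 2 listed peaks, held 5 summits in ECCs, 20 in the limb buds and 1 in the PNST cells, and none of these was within the limit. Lrrtm4, whose longest intron is 783 Kb, had 1 listed peak but 4, 9 and 6 summits inside the gene. Nlgn1 held 4 summits in ECCs, none of them listed. Over all 38 genes, 30 ECC, 106 limb bud and 20 PNST summits inside the genes were not listed for them, and 1 place among these, in Ntm, had peaks of all 3 tissues.

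Of the 18 genes with a peak in all 3 tissues, 6 had a place where all 3 peaks overlapped. For 7 of the 18 (Ank2, Ank3, Cntn3, Cntn5, Cntnap2, Lrrn1 and Nrxn3) no peaks of different tissues overlapped anywhere. Where a gene had peaks in both ECCs and PNST cells but none that overlapped (12 genes), the nearest pair was 29.4 to 827 Kb apart, with a median of 100 Kb. For limb buds and PNST cells (15 genes) the gap was 0.0680 to 256 Kb with a median of 14.3 Kb, and for ECCs and limb buds (10 genes) 0.0800 to 203 Kb with a median of 45.5 Kb.

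Counted by peaks, a limb bud peak overlapped 15 of the 39 ECC peaks (38.5%, 24.9 to 54.1) and a PNST peak overlapped 6 (15.4%, 7.25 to 29.7). The shares over all ECC peaks were 33.1% and 6.76%. An ECC peak overlapped 15 of the 236 limb bud peaks (6.36%, 3.89 to 10.2) and a PNST peak overlapped 6 (2.54%, 1.17 to 5.43), compared with 7.61% and 2.61% of all limb bud peaks. Of the 35 PNST peaks, 6 were overlapped by an ECC peak and the same number by a limb bud peak (17.1%, 8.10 to 32.7), compared with 10.3% and 17.2% of all PNST peaks. The share over all ECC peaks overlapped in PNST cells lay just below the interval of the genes. Without the Chl1, Csmd3, Lrrn3 and Sorcs1 places, 2 of 35 ECC peaks (5.71%) and 2 of 232 limb bud peaks (0.862%) were overlapped in PNST cells. Of 31 PNST peaks, 2 (6.45%) were overlapped in each of the other tissues. These places were picked because peaks of all tissues overlap there, so the shares had to fall. The lower shares cannot be set against those over all peaks, from which no such places were taken out.

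The depth of the lists differed. Limb buds had 4.73 times the filtered tags of ECCs, and with tags scaled down in proportion only 7 of the 236 limb bud peaks would hold the 5 tags of the weakest ECC peak. Of these 7, 4 were overlapped by an ECC peak, and so were 11 of the peaks below that number. At the depth of PNST cells, 155 of 236 limb bud peaks would hold 7 tags, of which 5 were overlapped by a PNST peak. The part of depth in the peak counts and overlaps was not tested.

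Peaks of the genes were as weak as peaks in general, apart from the 4 strong places. The median peak held 5 tags in ECCs, 9 in the limb buds and 8 in the PNST cells, compared with 6, 10 and 8 over all peaks. The 4 places held most of the ECC and PNST tags. With them the genes had 627 tags in ECCs, 2888 in the limb buds and 758 in the PNST cells, and without them 198, 2422 and 263 tags. In tags per 1000000, the sums went from 199, 194 and 64.1 to 62.9, 163 and 22.2. Without the 4 places, the maximum was 9 tags in ECCs, 27 in the limb buds and 20 in the PNST cells. With the p-value cut-off set to 1e-10, 7 ECC, 18 limb bud and 4 PNST peaks remained, and the 4 PNST peaks were those of the 4 places.

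E-boxes were found in 23 of the 39 peaks of ECCs (59.0%, 43.4 to 72.9), as did 140 of 236 in limb buds (59.3%, 53.0 to 65.4) and 23 of 35 in PNST cells (65.7%, 49.2 to 79.2). Over all assembled peaks the shares were 54.7%, 56.0% and 54.0%. Regions of the same length 1 Kb to either side of the peaks held an E-box in 52.6%, 54.9% and 65.7%. The shares over all peaks and in the side regions lay inside the intervals of the genes in all 3 tissues. At the cut-off of 1e-10, an E-box was held by 0 of 7 peaks in ECCs, 8 of 18 in the limb buds and 0 of 4 in the PNST cells, compared with 34.4%, 56.2% and 30.1% of all assembled peaks at that cut-off. The counts of 7 and 4 are too few to tell apart from those shares, since the Wilson intervals reach up to 35.4% and 49.0%.

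Most peaks of the genes, like most peaks of the lists, were made of repeated sequence. Words that recur in the genome made up at least 50% of 38 of the 39 peaks in ECCs (97.4%), 232 of 236 in the limb buds (98.3%) and 31 of 35 in the PNST cells (88.6%). Over all assembled peaks the shares were 94.8%, 98.6% and 96.0%. Of the 310 peaks, 259 shared at least 1 word of 32 bases with another peak of the genes, and 51 shared none. The same share was not computed for other sets of peaks. The largest group linked by such words had 99 peaks (8 in ECCs, 85 in the limb buds and 6 in the PNST cells) near 27 of the genes, and the next had 35 peaks near 17 genes. For the 5 largest groups, the word found in the most of their peaks is shown, to let the repeats be recognised, and E-boxes are in capitals. Each word lies in part of its group only and recurs 2865 to 22262 times in the genome.
group 1: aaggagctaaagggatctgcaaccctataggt
group 2: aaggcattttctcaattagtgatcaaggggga
group 3: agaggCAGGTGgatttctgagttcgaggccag
group 4: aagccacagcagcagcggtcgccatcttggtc
group 5: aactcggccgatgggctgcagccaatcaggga

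The word of group 1, which belongs to the 3′ part of the L1 retrotransposon, occurred 22262 times in the assembled chromosomes. It lay in 20 of the 236 limb bud peaks, near 13 of the genes, among them Cntnap2, Csmd1, Lsamp and Nrxn3, and in none of their 39 ECC or 35 PNST peaks. Over the whole lists of 10965 ECC, 48965 limb bud and 7538 PNST peaks it lay in 138, 1824 and 81. Each word was picked for its number of peaks near these genes, so no difference from the lists or between tissues can be read from such counts. In 8 of the 20 peaks the word of group 1 came with the E-box CATATG. The word of group 2 lay in 16 peaks near 11 genes, of which 15 held the E-box CAACTG, and in 120 ECC, 892 limb bud and 40 PNST peaks over the whole lists. The word of group 3, part of the B1 short interspersed repeat, holds an E-box itself. The word of group 4 lay in 11 peaks near 8 genes, of which 10 held the E-box CACCTG, and in 182, 1135 and 0 peaks of the lists. That of group 5, which the printed Opcml region holds, lay in 5 peaks near Grid1, Lsamp and Opcml and in 254, 334 and 2 peaks of the lists. In limb buds, CATATG made up 16.5% of the E-boxes in peaks of the genes and CAACTG 15.6%, compared with 10.3% and 9.86% over all limb bud peaks. The commonest kind there, CACCTG, made up 23.6% compared with 23.9%. Other kinds were lower near the genes, among them CACATG (8.96% compared with 13.9%) and CAAGTG (2.83% compared with 7.88%). E-boxes in copies of 1 repeat are not independent counts. In PNST cells the commonest E-box near the genes was CAAATG (11 of 36, 30.6%), compared with 18.4% over all PNST peaks. An E-box and its reverse complement were counted as 1 kind, so that CATGTG counts as CACATG. How reads from repeated sequence were placed is not given in the sources used here, so a peak in such a word cannot be told apart from signal at another copy.

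Peaks with under 50% repeated words were few. Besides the Chl1, Csmd3 and Sorcs1 places, they lay in intron 8 of Grid1 (limb buds, 8 tags), 35977 bp from Csmd3 (limb buds, 9 tags), 49409 bp from Nfasc (PNST cells, 7 tags) and 19381 bp from Ank3 (PNST cells, 7 tags). The peak in Grid1 was the 1 peak of the genes with no repeated word at all, and it held 1 E-box. It is shown with the Nfasc and Ank3 peaks, from chr14:36138484-36138620, chr1:134687657-134687800 and chr10:69505961-69506104 (mm9, plus strand), out of the peaks of 1 tissue with under 50% repeated words. In the Nfasc and Ank3 peaks 46.0% and 43.4% of words were repeated. The Csmd3 peak of 9 tags, which is not shown, had 45.7% repeated words and 0 E-boxes.
Grid1: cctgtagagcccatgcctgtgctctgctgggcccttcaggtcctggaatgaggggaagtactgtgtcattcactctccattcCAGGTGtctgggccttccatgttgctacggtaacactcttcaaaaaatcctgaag
Nfasc: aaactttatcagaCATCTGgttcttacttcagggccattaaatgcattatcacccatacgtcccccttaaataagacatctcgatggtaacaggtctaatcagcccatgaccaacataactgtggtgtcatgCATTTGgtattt
Ank3: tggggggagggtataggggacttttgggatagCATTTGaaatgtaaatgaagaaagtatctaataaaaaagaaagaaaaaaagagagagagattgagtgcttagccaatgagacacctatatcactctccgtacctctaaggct

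The fold enrichment of the Grid1, Nfasc and Ank3 peaks was 13.05, 12.14 and 15.17. None of them was overlapped by a peak of another tissue. The medians over all peaks assigned to the genes were 15.7 in the limb buds and 15.2 in the PNST cells, and the values of these 3 peaks lay at or below the median of their tissue. The Csmd3 peak of limb buds that is not shown stood at 18.27, above the limb bud median.

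The strongest peaks found in 1 tissue only are shown with their E-boxes in capitals. By the score of the list, these were chr15:47717805-47717893 in intron 25 of Csmd3 for ECCs, chr19:48487969-48488249 in intron 2 of Sorcs3 for limb buds and chr6:103630590-103630805 in intron 10 of Chl1 for PNST cells (mm9, plus strand).
Csmd3: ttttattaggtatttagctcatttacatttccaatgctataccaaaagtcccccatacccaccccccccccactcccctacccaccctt
Sorcs3: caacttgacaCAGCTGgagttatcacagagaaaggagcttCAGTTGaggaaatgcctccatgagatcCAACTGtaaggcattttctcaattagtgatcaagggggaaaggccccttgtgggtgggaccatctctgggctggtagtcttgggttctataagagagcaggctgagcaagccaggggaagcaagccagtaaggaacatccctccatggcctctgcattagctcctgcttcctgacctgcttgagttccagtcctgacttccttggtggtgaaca
Chl1: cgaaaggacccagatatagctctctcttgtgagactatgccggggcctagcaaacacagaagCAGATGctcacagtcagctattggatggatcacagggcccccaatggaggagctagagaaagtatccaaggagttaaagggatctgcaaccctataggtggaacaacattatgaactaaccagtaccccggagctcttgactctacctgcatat

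The Csmd3 peak of ECCs held 8 tags at a fold enrichment of 75.2 and no E-box, and its sequence shares a long stretch with the place printed for Grid1. The Sorcs3 peak of limb buds held 23 tags at a fold enrichment of 18.27 and 3 E-boxes, and it contains the word of group 2. The Chl1 peak of PNST cells held 12 tags at a fold enrichment of 14.79 and 1 E-box. All 3 were made of repeated words for 96.6% to 100% of their length. After Sorcs3, the limb bud peaks of highest score found in no other tissue were in Cntnap2 (19 tags), Negr1 (20 tags) and Csmd1 (8 tags), with 0 E-boxes each.

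A further 62 genes of synaptic and neurite adhesion, among them the Slitrk, Flrt, teneurin (Odz) and latrophilin (Lphn) families and the Dlg and Shank scaffold proteins, were counted beside the 38. They were shorter, with a median of 63.2 Kb, and 24 were at least 200 Kb long. A peak was listed for 29 of the 62 in ECCs (46.8%, 34.9 to 59.0), 51 in the limb buds (82.3%, 71.0 to 89.8) and 23 in the PNST cells (37.1%, 26.2 to 49.5), and for 17 in all 3 tissues (27.4%, 17.9 to 39.6). These shares lay below those of the 38 genes in each tissue, with overlapping intervals. Il1rapl1 and Magi2, both over 1000 Kb long, had 19 peaks each in limb buds.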

How the data were processed

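Twist1 ChIP-seq peak lists of 1 ECC, 1 limb bud and 1 PNST sample were analysed. The authors aligned 50 bp tags to mm9 with Eland and Bowtie and called peaks with MACS 1.4.2 (p-value cut-off 1e-05, band width 300, at most 1 tag kept at a position), and the deposited lists give for each peak the count of tags, a score of 10 times −log10 of the p-value, and the fold enrichment as a ratio over local background. The headers name no control file, although the methods describe one. Handling of tags that match several places is not given in the sources used here. The lists name the nearest gene on each side with a distance.

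The 38 genes and all gene lists used here were chosen with earlier results of these data known. Gene coordinates came from GENCODE annotation of the mm9 assembly, and gene length was that of the whole record. Overlap required 5% of the length of the peak. E-boxes and words of 32 bases, counted over the assembled chromosomes, were read from the mm9 sequence. Shares have 95% Wilson intervals and densities exact Poisson intervals, which cover counting error only. No test between tissues was possible with 1 sample each. Overlap and distance steps were tested on simulated data. Alternatives changed the cut-off, distance limit, overlap, repeat content and E-box window. Calculations used Python 3.11.15, numpy 2.4.6, pandas 2.3.3 and scipy 1.17.1, and plots matplotlib 3.10.9. The RefSeq promoter table was of another build and was not used here. Some genes and sequences are not reported here.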

Additional observations from a re-analysis of the deposited data

How the results depend on the processing

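Over 19 results, 98 values were recomputed, of which 46 stayed within their counting interval or within 1.5 times the reported count and 52 moved further. With the p-value cut-off at 1e-10, 7 peaks in ECCs, 18 in the limb buds and 4 in the PNST cells were left near 5, 14 and 4 of the genes, and 4 genes had a peak in all 3 tissues. Of the peaks left, 4 ECC peaks were overlapped by a limb bud peak and 4 by a PNST peak. An ECC peak overlapped 6 of the limb bud peaks and a PNST peak 5, and each other tissue overlapped 4 PNST peaks. The overlapping peaks of the other tissue did not have to pass the cut-off. In Grid1 and Cntnap4, those that overlapped a limb bud peak did not pass it. E-boxes were in 0, 8 and 0 of the 7, 18 and 4 peaks left. The density in the genes was 0.0265, 0.0929 and 0.00885 per 100 Kb. A fold enrichment of at least 20 left 37 ECC, 21 limb bud and 6 PNST peaks near 23, 14 and 6 genes, which puts ECCs above limb buds, with 5 genes in all 3 tissues. Over all peaks the median fold enrichment was also higher in ECCs (26.5) than in the limb buds (14.4) and the PNST cells (15.2). A distance limit of 10 Kb left 13, 67 and 8 peaks in ECCs, limb buds and the PNST line, 10 genes in ECCs, 7 in PNST cells and 5 in all 3. Peaks anywhere in a gene or within 50 Kb of it numbered 74 in ECCs and 55 in PNST cells. Within 50 bp of the summit, 15 ECC and 113 limb bud peaks held an E-box. These settings keep fewer or more peaks, or less sequence, by construction.

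Other settings were chosen after seeing the data. Peaks with under 50% repeated words numbered 1, 4 and 4 in ECCs, limb buds and the PNST line. They lay near 1, 3 and 4 genes, with 1 gene in all 3 tissues. That gene was Chl1, through the place whose letters are those of the minor satellite. Among the others were the limb bud peak of the shared Csmd3 place and the PNST peak of the Sorcs1 place. The words in the middle of the Chl1, Csmd3 and Sorcs1 places occurred at 1, 8 and 204 places in the genome. The rest were peaks of 1 tissue near Grid1, Csmd3, Nfasc and Ank3. Within 50 Kb of a transcript start there were 19, 74 and 11 peaks, 13 genes in ECCs, 10 in PNST cells and 4 in all 3. Without the 4 strongest shared places, 2 ECC and 2 limb bud peaks were overlapped by PNST peaks, and 2 PNST peaks by each other tissue. A peak in all 3 tissues was kept by 16 genes. The places were picked for their overlap, so fewer overlapped peaks follow by construction. Of 34 limb bud peaks that share no word with another, 17 held an E-box, and the cause was not tested.

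Alternatives on soft-masked repeats were not run, since the genome given is not soft-masked. No paired analysis was possible because each tissue has 1 sample, and no sample has a replicate to leave out. The weakest peaks hold 5 to 8 tags, and weaker regions were not detectable, at 1.59 tags per 1000000 in ECCs against 0.537 in limb buds.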

Other observations

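Places inside the genes but beyond the 50 Kb limit held a few stronger peaks. A peak in Lrrtm4, a postsynaptic partner of neurexins, reached a fold enrichment of 102.71 in ECCs with at most 11 tags, and a limb bud peak in Lrrc4c, the netrin-G1 ligand, reached 39.14 with at most 18 tags. In both genes 2 ECC and 2 limb bud peaks were overlapped in another tissue and none of the PNST peaks was. Ntm, an IgLON protein, had the 1 place with peaks of all 3 tissues, with 7 tags in ECCs and 9 in PNST cells.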
